A study of Mus musculus with 64 samples.

Results

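Voltage-gated sodium and calcium channels are described here through 35 genes whose transcripts were counted in punches of the ventral tegmental area, a midbrain region that holds dopamine neurons. The genes were chosen by symbol, as the pore-forming and accessory subunits of both channel families, with a mean of at least 10 counts over 64 libraries. The symbols of 40 of the 24421 genes in the file matched, and 35 of them reached that mean. Just inside it were Cacna1s, with a mean of 10.3 counts, and Scn11a, with 19.98, and just outside were Cacng6, with 3.09, and Cacng1, with 2.95. Scn4a, Scn10a and Cacna1f, with means of 2.53, 0.953 and 0.922 counts, were also left out.

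Each library came from 1 adult male mouse of the strain labelled 129S1/Svlm. The genotype label was Wildtype or Clock delta 19 mutant, the latter an allele of the circadian transcription factor gene Clock whose protein acts in a dominant-negative way. Mice received valproate (VPA, an antiepileptic and mood stabiliser that also inhibits histone deacetylases), ACY957 (an inhibitor of class I histone deacetylases) or the matching vehicle, over 14 days. Tissue was collected at zeitgeber time 6, some 24 h past the final dose, and bilateral punches of 1 mm were pooled for each mouse, so every library holds all the cell types of the punch. Libraries labelled wildtype numbered 3 for the VPA vehicle, 8 for VPA, 5 for the ACY957 vehicle and 8 for ACY957. Libraries labelled mutant numbered 13, 8, 11 and 8 in the same order. The design text gives 8 mice for each group, so the vehicle labels depart from it.

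Voltage-gated sodium channels carry the upstroke of the action potential. Each has 1 large alpha subunit that forms the pore and smaller beta subunits that tune gating and anchor the channel at the cell surface. Voltage-gated calcium channels turn depolarisation into calcium entry, which drives transmitter release, gene regulation and, in midbrain dopamine neurons, part of the pacemaking for which these cells are known. Their alpha1 subunit forms the pore and sets the class (L, P/Q, N, R or T type), while the alpha2delta and cytoplasmic beta subunits govern trafficking. The gamma family includes proteins better known as regulators of AMPA-type glutamate receptors (TARPs).

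Library totals ranged from 20136700 to 37475300 counts, and all 35 genes had counts in every library. Th, the tyrosine hydroxylase gene that defines dopamine neurons, ranged from 26.2 to 1716 CPM (a gene's counts scaled to the TMM-adjusted library total). Below 8 on the log2 CPM scale lay 4 libraries, all from VPA groups or a VPA vehicle group. They were replicate 3 of wildtype VPA, replicates 2 and 8 of mutant VPA and replicate 3 of the mutant VPA vehicle. Clock ranged from 34.3 to 89.5 CPM in libraries labelled mutant and from 56.3 to 85.1 in those labelled wildtype. The delta 19 allele skips an exon, so a count over the whole gene does not check the label. A mean over 8 genes that the clock drives split the libraries at its widest gap, and 13 libraries lay on the side of the other genotype label. In the wildtype label this was replicate 8 of ACY957 alone. In the mutant label they were replicate 2 of VPA, replicates 1 and 3 of ACY957, and vehicle libraries. The vehicle libraries were replicates 3, 5, 6, 7, 8 and 13 of the VPA vehicle and 6, 7 and 8 of the ACY957 vehicle. One library, replicate 11 of the mutant label under the ACY957 vehicle, stood apart genome-wide, as described further on.

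Promoter sequence is shown for 4 of the genes on which the results turn: Scn9a and Cacna2d3, which were higher where Th was higher, Cacna1i, which was lower there, and Cacna1b, which differed between groups. The letters are the 250 bases before the RefSeq start on GRCm38.p6, written 5′ to 3′ on the gene's strand, with each GC box (GGGCGG, or CCGCCC read on the other strand) in capitals. In order, the windows are chr2:66634963-66635212 (minus strand), chr14:29721865-29722114 (minus), chr15:80286988-80287237 (plus) and chr2:24763153-24763402 (minus).
Scn9a: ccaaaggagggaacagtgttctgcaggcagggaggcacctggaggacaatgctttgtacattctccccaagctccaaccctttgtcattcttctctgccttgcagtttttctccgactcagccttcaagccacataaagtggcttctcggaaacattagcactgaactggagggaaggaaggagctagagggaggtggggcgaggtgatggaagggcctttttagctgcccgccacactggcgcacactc
Cacna2d3: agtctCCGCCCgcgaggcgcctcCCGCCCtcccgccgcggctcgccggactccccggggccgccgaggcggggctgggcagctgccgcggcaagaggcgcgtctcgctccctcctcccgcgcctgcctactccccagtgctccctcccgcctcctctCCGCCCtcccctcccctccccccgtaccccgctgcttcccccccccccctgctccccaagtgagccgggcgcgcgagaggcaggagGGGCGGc
Cacna1i: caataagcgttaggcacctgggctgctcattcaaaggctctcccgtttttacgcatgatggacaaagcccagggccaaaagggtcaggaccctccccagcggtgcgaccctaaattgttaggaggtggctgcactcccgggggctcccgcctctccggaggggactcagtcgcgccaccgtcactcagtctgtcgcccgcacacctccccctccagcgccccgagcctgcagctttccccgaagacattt
Cacna1b: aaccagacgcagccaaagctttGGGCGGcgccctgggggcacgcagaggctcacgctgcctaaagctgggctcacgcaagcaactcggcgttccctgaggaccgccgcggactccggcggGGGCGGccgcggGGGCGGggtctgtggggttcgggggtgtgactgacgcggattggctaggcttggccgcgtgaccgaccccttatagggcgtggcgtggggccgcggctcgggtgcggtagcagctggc
The windows of Scn9a and Cacna1i held no GC box, that of Cacna1b held 3 and that of Cacna2d3 held 4. RefSeq windows were matched for 26 of the 35 genes. A GC box lay in a window of 14 of these 26, beside 35.4% of all genes with a window. Some genes have more than 1 window: counted by window it was 14 of 37, beside 32.7% of all windows. The median GC content was 56.8% over these 37 windows and 52.4% over all windows. The E-box CACGTG, the palindrome that CLOCK and BMAL1 bind, lay in none of the 26, beside 6.86% of all genes. The motif AAAGGTCA, bound by the dopamine neuron factor NURR1, was searched on both strands and lay in the window of Scn8a alone among the 26, beside 1.55% of all genes.

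Levels were compared between genes as CPM per kilobase of merged GENCODE exons, averaged over 64 libraries. Among sodium channel beta subunits, Scn2b stood at 68.3 ± 6.08 (SD, n = 64), Scn3b at 31.3 ± 6.44 and Scn4b at 27.5 ± 10.9 CPM per kb. The mean ± SD ranges of the neighbours Scn3b and Scn4b overlapped. Among sodium channel alpha subunits, Scn1a (Nav1.1, prominent in fast-spiking neurons) was highest at 21.1 ± 3.51 CPM per kb and made up 43.1% of the alpha total per length. Scn2a1 (Nav1.2, listed as Scn2a in GENCODE) followed with 29.5%, Scn3a (Nav1.3) with 10.3% and Scn8a (Nav1.6, the main channel of mature axon initial segments) with 9.80%. Scn9a, known from sensory neurons as Nav1.7, made up 3.14%. The atypical Scn7a made up 2.43% and the sensory Scn11a 0.265%.

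Among calcium channel pores, Cacna1b (the N-type pore) was highest at 3.97 ± 0.692 CPM per kb, above Cacna1g (T type) at 3.40 ± 0.574, Cacna1i (T type) at 3.12 ± 0.656 and Cacna1a (P/Q type) at 2.16 ± 0.400. The mean ± SD ranges of Cacna1b, Cacna1g and Cacna1i overlapped. Cacna1d and Cacna1c, the L-type pores, stood at 0.673 ± 0.122 and 0.672 ± 0.120 CPM per kb and did not differ beyond their spread. Cacna1s, the skeletal muscle L-type pore, was lowest of all at 0.0594 ± 0.0396. Among accessory subunits, Cacna2d1 (a binding site of gabapentin) led the alpha2delta genes at 18.2 ± 4.06 CPM per kb and Cacna2d4 was lowest at 0.186 ± 0.0427. Cacnb4 led the beta subunits at 15.9 ± 1.90, and Cacnb2 was lowest at 3.07 ± 0.309. The mean ± SD ranges of Cacnb4 and Cacnb3 (14.0 ± 2.15) overlapped. Cacng7 led the gamma family at 23.2 ± 1.65 CPM per kb, and Cacng4 was lowest at 2.39 ± 0.420. With the longest transcript in place of the merged exons, 22 of the 35 levels moved by more than 1 SD. Some of the orders given here then changed. Cacnb3 (20.5 CPM per kb) stood above Cacnb4 (17.3), and Cacna1g (4.12) stood above Cacna1b (4.05). Scn8a (6.61) stood above Scn3a (6.55), and Cacna1c above Cacna1d. Which gene led the beta subunits and the calcium channel pores thus depended on the length used. Exons of 10 of the genes overlap a gene on the opposite strand, among them Cacna1d with Chdh and Scn9a with Gm13629, and the strand setting of the counting is not given in the sources used here.

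**Figure D1:**
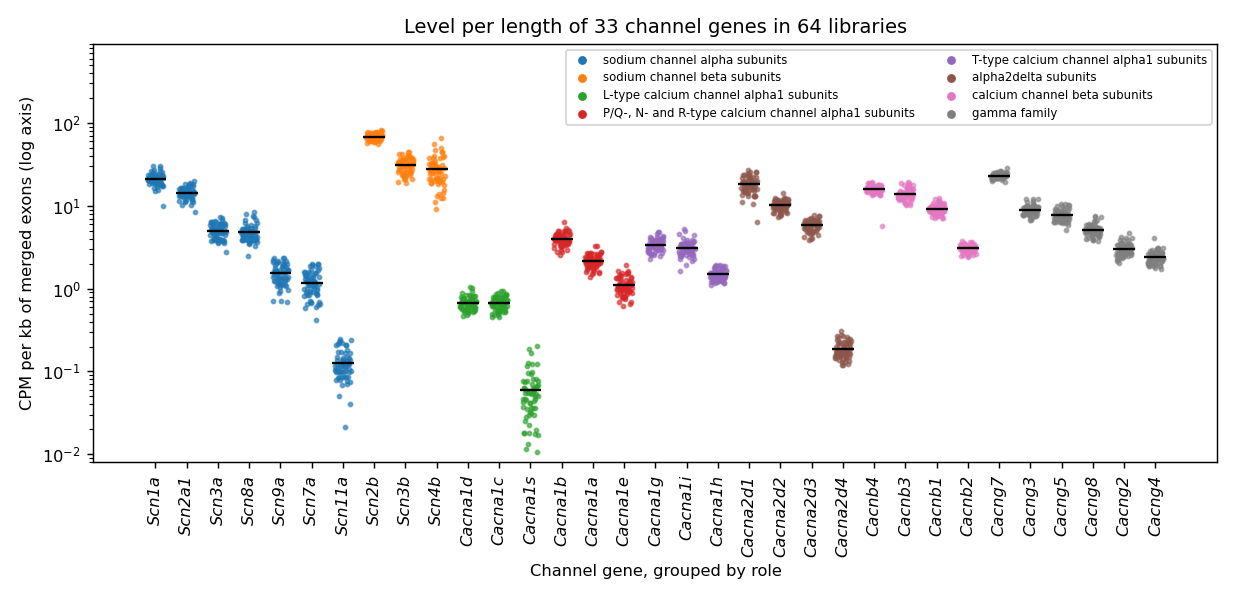
CPM per kilobase of merged exons (log axis) for 33 of the 35 channel genes, grouped by role; each point is 1 of 64 libraries and the bar is the mean. Among the genes plotted, Scn2b has the highest mean, at 68.3, and Cacna1s the lowest, at 0.0594.

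Some of these genes varied far more than others between mice of the same group. The largest within-group SD on the log2 CPM scale was that of Cacna1s (0.75), followed by Scn11a (0.55), Scn4b (0.54) and Scn7a (0.52). Cacna1s and Scn11a lay near the bottom of the counting range, at 0.0696 to 1.33 CPM and 0.128 to 1.45 CPM. Scn4b, the beta subunit linked to resurgent sodium current, was well counted and still ran from 45.9 to 324 CPM with a median of 131. The smallest SDs were those of Cacng7 (0.092), Scn2b (0.12), Cacnb2 (0.14) and Cacng3 (0.16). Cacng7 ran only from 47.2 to 69.8 CPM.

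Levels were next set against Th. A slope on log2 CPM of Th, fitted by edgeR within the 8 groups, passed an adjusted p of 0.05 for 17 of the 35 genes, 8 rising and 9 falling with Th; across all genes tested 27.9% passed. The median slope was -0.01 for the 35 genes and lay near 0 for all genes. In these bulk punches, more dopamine neurons and more Th per cell cannot be told apart. All 13 dopamine neuron markers rose along Th (Th is 1 of them), with a median slope of 0.66, and of 9 hypothalamic markers 5 fell and 1 rose, with a median of -0.62. Of 12 markers of all neurons 7 rose and 3 fell, and of 9 astrocyte markers 3 rose and 4 fell. The part of these markers in the channel slopes was not tested.

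Sodium channel genes split along Th. Scn9a stood at 8.82 to 11.4 CPM in the 4 libraries lowest in Th and at 11.9 to 30.3, with a median of 20.4, in the other 60. The 4 libraries were the lowest of all 64 for this gene, with no overlap. Its slope was 0.28 ± 0.04 (SE) log2 per log2 unit of Th, with an edgeR adjusted p of 2.58e-09. Scn3b, a beta subunit, ran from 104 to 117 CPM in the 4 libraries and from 115 to 242 in the others, and 1 of the 60 fell within the range of the 4. Its slope was 0.19 ± 0.02 (edgeR adjusted p = 4.72e-10). Scn3a also rose, with a slope of 0.11 (edgeR adjusted p = 0.00664). Scn7a went the other way: it stood at 11.5 to 14.7 CPM in the 4 libraries and at 3.03 to 14.6, with a median of 8.21, in the others. Its slope was -0.27 ± 0.05 (edgeR adjusted p = 2.85e-05), and that of Scn2a1 was -0.09 ± 0.03 (0.00514). Scn3a, Scn2a1, Scn1a, Scn9a and Scn7a lie in a cluster on mouse chromosome 2, between 65457118 and 66784914 on mm10. The cluster has a gap, as Scn2a1 ends at 65767447 and Scn1a starts at 66270778. Within this cluster Scn3a and Scn9a rose along Th, Scn2a1 and Scn7a fell, and Scn1a had a slope of 0.00 (edgeR adjusted p = 0.952). Without the 4 libraries this turned around for a pair of them: Scn2a1 no longer passed (-0.06, edgeR adjusted p = 0.429) and Scn1a fell (-0.15, 0.0397).

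**Figure D2:**
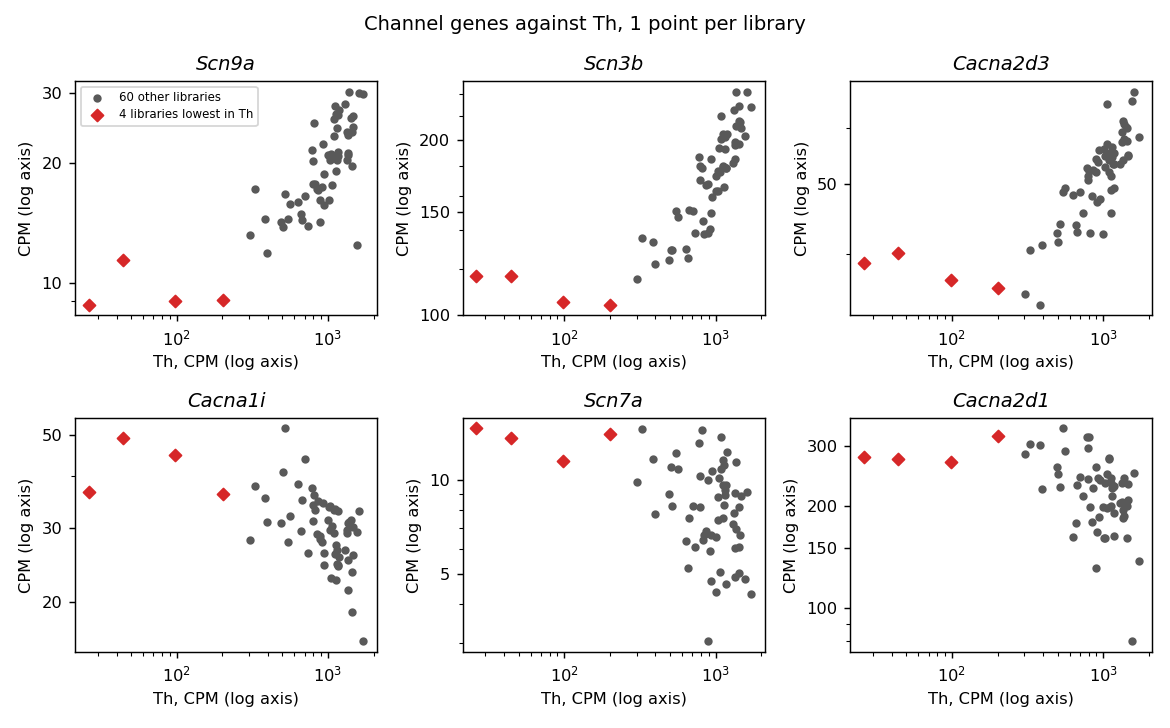
CPM of 6 channel genes against CPM of Th (both log axes), 1 point per library; diamonds mark the 4 libraries lowest in Th. Scn9a, Scn3b and Cacna2d3 are higher where Th is higher, and Cacna1i, Scn7a and Cacna2d1 are lower.

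Calcium channel pores and their accessory subunits split as well. Cacna1a and Cacna1e, the P/Q- and R-type pores, rose with slopes of 0.11 ± 0.03 and 0.10 ± 0.04 (edgeR adjusted p = 0.00362 and 0.0377). Cacna1i fell: it stood at 36.1 to 49.03 CPM in the 4 libraries lowest in Th and at 16.1 to 51.8, with a median of 29.6, in the other 60, so the ranges overlapped. Its slope was -0.21 ± 0.03 (edgeR adjusted p = 1.11e-09), while the other T-type pores, Cacna1g and Cacna1h, each had a slope of -0.01 and did not pass. Cacna1c fell by 0.08 log2 (edgeR adjusted p = 0.0193), and Cacna1d had a slope of 0.05 (0.258). Without the 4 libraries Cacna1c no longer passed (-0.03, edgeR adjusted p = 0.778) and Cacna1d rose (0.18, 0.00796). Leaving out replicate 2 of the mutant VPA group alone took Cacna1c to -0.05 (edgeR adjusted p = 0.204). Cacna1s had a slope of -0.43 ± 0.08 (edgeR adjusted p = 5.41e-05) at a median of 0.3502 CPM, and without the 4 libraries it was -0.09 (0.781). Its mean over the other 60 libraries was 9.13 counts, so it met the minimum only with the 4, in which it was high.

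The alpha2delta genes moved in different directions. Cacna2d3 stood at 35.8 to 40.1 CPM in the 4 libraries and at 33.9 to 67.4 in the others, of which 2 lay below the highest of the 4. It rose with a slope of 0.15 ± 0.02 (edgeR adjusted p = 9.34e-10), and Cacna2d2 rose with 0.08 ± 0.02 (0.000842). Cacna2d1 was high in the 4 libraries, at 269 to 320 CPM, beside a median of 225 in the others. Its slope was -0.19 ± 0.04 (edgeR adjusted p = 9.96e-05). Cacnb2 rose by 0.05 (edgeR adjusted p = 0.0191), and Cacng4 and Cacng5 fell with slopes of -0.08 and -0.07 (0.0240 and 0.0378). Some of these calls rested on single libraries. Without replicate 2 of the mutant VPA group the slope of Cacng4 was -0.02 (edgeR adjusted p = 0.641), and it did not pass without replicate 3 of the wildtype VPA group either (0.0774). Cacng5 did not pass without replicate 1, 3, 4 or 8 of the mutant VPA group or replicate 3 of its vehicle (edgeR adjusted p = 0.0581 to 0.157). Cacnb2 did not pass without replicate 3 of the wildtype VPA group (edgeR adjusted p = 0.0909). Cacna1e did not pass without replicate 5 of wildtype VPA, 6 of wildtype ACY957, 4, 6 or 8 of mutant VPA or 3 of its vehicle (edgeR adjusted p = 0.0518 to 0.0799). Without the 4 libraries, 12 of the 17 slopes still passed in the same direction and 23 of all 35 kept their sign. That of Cacng4 turned to 0.04 (edgeR adjusted p = 0.497). In all, 19 of the 35 then passed, with 3453 of all genes, against 17 and 4364 over 64 libraries. Some slopes were steeper than before: Scn3b (0.37), Cacna2d3 (0.28), Cacna2d1 (-0.37), Cacna1a (0.23) and Cacna1e (0.29, edgeR adjusted p = 0.00108). Those of Scn2a1, Cacna1c and Cacna1s were flatter.

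**Figure D3:**
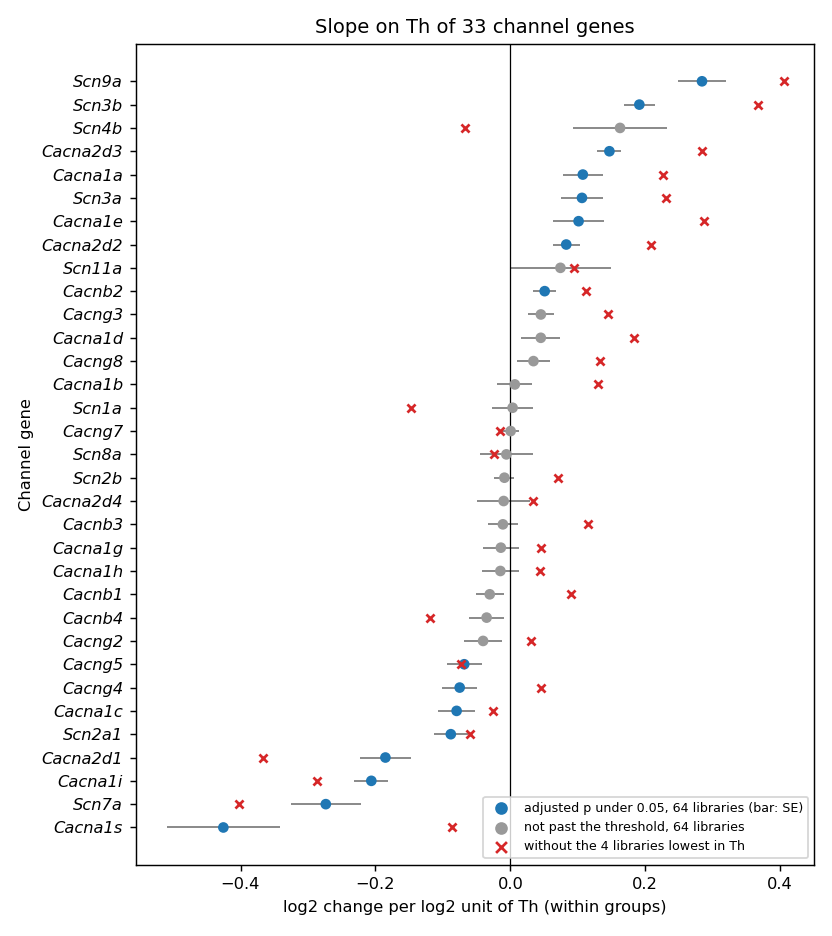
Slope of 33 of the 35 channel genes on Th, as log2 change per log2 unit of Th within groups; bars are SE, points past an adjusted p of 0.05 are blue, and crosses leave out the 4 libraries lowest in Th. Scn9a is highest, at 0.28. Cacna1s, at -0.43, moves to -0.09 without the 4 libraries.

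Genes that work with these channels also ran along Th: 24 of 57 listed partner genes tested passed, 10 rising and 14 falling, beside 27.9% of all genes. Fgf13, an intracellular partner of sodium channels, rose with a slope of 0.25 ± 0.02 (edgeR adjusted p = 4.92e-13), while its relative Fgf14 fell with -0.12 ± 0.02 (3.10e-05). Hcn3, a pacemaker channel, rose with 0.23 ± 0.03 (edgeR adjusted p = 3.26e-11). Camk2b, a calcium-dependent kinase, fell with -0.13 ± 0.02 (5.12e-09), and Rrad, an inhibitor of calcium channels, with -0.28 ± 0.06 (9.86e-05). Of 14 sodium channel partners 4 rose and 3 fell, and of 18 calcium channel partners 2 rose and 8 fell.

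Whether these genes differed between the treatment groups was asked first over all 8 groups at once. The edgeR F test passed for 7 of the 35, beside 12.9% of all genes tested. They were Cacna1b (adjusted p = 0.00598), Cacnb3 (0.00724), Cacna1g (0.0168), Cacng3 (0.0181), Cacng8 (0.0187), Cacna1c (0.0266) and Scn3b (0.0281). DESeq2 passed 12 of the 35, and 2874 of all genes against 2020 by edgeR. Leaving out the 16 vehicle libraries labelled mutant with a mouse number of 48 or above (the later vehicles, by number and not by date) left Cacnb3, Cacng8 and Scn3b, with 1846 of all genes. With Th as a covariate Cacng3, Cacng8 and Scn3b did not pass, without the 4 libraries lowest in Th Scn3b did not, and with the library GC trend as a covariate Cacna1g did not. Cacna1b, for example, had group means of 33.95 ± 5.86 CPM (SD, n = 8) under VPA and 34.6 ± 3.38 (n = 13) under its vehicle in the mutant label, and of 44.4 ± 9.49 (n = 8) under ACY957 and 43.6 ± 6.26 (n = 11) under its vehicle. In the wildtype label the 4 means lay between 38.1 and 43.3 CPM.

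No channel gene passed the threshold for either drug against its own vehicle. In the wildtype label 0 of 35 passed under VPA (edgeR; 0.0256% of all genes) and 0 of 35 under ACY957 (0.0064%). In the mutant label 0 of 35 passed under VPA (0.0576%) and 0 of 35 under ACY957 (0.0064%). DESeq2 and limma voom gave 0 in each of these 4 comparisons. At an unadjusted p under 0.05 there were 1, 0, 5 and 0 genes in the same order. The smallest p in the mutant label under VPA was that of Cacna2d4, an alpha2delta subunit, with a log2 fold change of -0.44 ± 0.14 (edgeR adjusted p = 0.149). Cacng5 followed with 0.22 ± 0.09 (edgeR adjusted p = 0.304) and Scn8a with -0.31 ± 0.14 (0.338). Under VPA in the wildtype label the smallest p was that of Cacng4, with -0.30 ± 0.15 (edgeR adjusted p = 1.000), then Cacna2d4 with -0.38 ± 0.20 and Cacna2d2 with -0.16 ± 0.12. Under ACY957 the smallest were Scn11a in the wildtype label, with 0.56 ± 0.33 (edgeR adjusted p = 0.999), and Scn2b in the mutant label, with -0.10 ± 0.05 (0.825). Cacna1s (0.73 ± 0.51) and Cacng2 (0.18 ± 0.13) came next in the wildtype label, and Cacna1d (0.18 ± 0.11) and Cacna1g (-0.14 ± 0.10) in the mutant label. The median log2 fold change of the 35 lay between -0.05 and 0.01 in these 4 comparisons.

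The genotype labels were compared within each treatment. The edgeR test passed 0 of 35 channel genes under VPA (1% of all genes), 0 of 35 under ACY957 (0%), 0 of 35 under the VPA vehicle (0.0064%) and 0 of 35 under the ACY957 vehicle (0.0128%). Unadjusted p-values under 0.05 numbered 2, 2, 0 and 1, and DESeq2 and limma voom also gave 0 in each. The closest were Cacnb3 under ACY957, at 65.6 ± 10.4 CPM in the mutant label and 54.3 ± 3.85 in the wildtype label (log2 difference 0.27 ± 0.09, edgeR adjusted p = 0.733), and Scn9a under VPA, at 15.1 ± 4.13 against 20.8 ± 7.07 CPM (-0.46 ± 0.19, 0.215). Cacna1g under the ACY957 vehicle was 40.7 ± 5.15 CPM in the mutant label and 33.4 ± 7.07 in the wildtype label (0.29 ± 0.11, edgeR adjusted p = 0.999). Under the VPA vehicle the closest were Cacng2 (0.30 ± 0.15), Cacna1e (-0.38 ± 0.20) and Scn3a (-0.31 ± 0.17), each at an edgeR adjusted p of 0.913. Cacna1e and Scn3a also had differences of -0.32 and -0.25 under VPA, Cacna1d and Scn3b of 0.26 and 0.26 under ACY957, and Scn1a and Scn2b of -0.20 and 0.10 under the ACY957 vehicle. Libraries whose clock output went against their label were in these groups, and their part in these values was not tested. The interaction of genotype label and drug passed 0 of 35 genes for VPA (0.0064%) and 0 of 35 for ACY957 (0%) by edgeR, with 0 by DESeq2 and limma voom and 0 at an unadjusted p under 0.05 for either drug. The smallest p-values for VPA were those of Cacng4 (0.33 ± 0.18), Cacnb3 (0.26 ± 0.15) and Scn4b (-0.72 ± 0.43). For ACY957 they were those of Cacna1d (0.33 ± 0.17), Cacna1s (-1.04 ± 0.65) and Cacna1i (-0.30 ± 0.21).

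VPA and ACY957 were set against each other within each label, although each drug had a vehicle of its own. In the mutant label 5 of the 35 genes passed, all lower under VPA, beside 5.56% of all genes. Cacna1d stood at 6.002 to 8.37 CPM with a median of 7.29 under VPA and at 7.96 to 13.3 with a median of 9.24 under ACY957. In 7 of 8 VPA libraries it lay below the lowest ACY957 library. The log2 difference was -0.46 ± 0.12 (edgeR adjusted p = 0.0151). Cacna1b stood at 25.1 to 44.1 CPM (median 32.9) under VPA and at 35.5 to 63.01 (median 43.1) under ACY957. It lay below the ACY957 median in 7 of 8 VPA libraries, with a log2 difference of -0.38 ± 0.10 (edgeR adjusted p = 0.0192). Scn3b stood at 115 to 196 CPM (median 131) and at 151 to 242 (median 212), with 6 of 8 VPA libraries below the lowest ACY957 library. Its log2 difference was -0.48 ± 0.13 (edgeR adjusted p = 0.0214). Cacng3, a TARP, and Cacna1e followed with -0.28 ± 0.08 (edgeR adjusted p = 0.0285) and -0.51 ± 0.16 (0.0427).

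Over all 35 genes, 30 were lower under VPA in the mutant label and the median log2 difference was -0.17, beside 0.00168 for all genes. All 8 sodium channel alpha genes, all 4 calcium channel beta genes and all 6 genes of the gamma family had a negative difference, and 1 of these 18, Cacng3, passed. In the wildtype label 0 of 35 passed (0.959% of all genes; 6 at an unadjusted p under 0.05; 1 by DESeq2, Cacng2; 0 by limma voom), 30 again had a negative difference and the median was -0.12. Cacng2 (stargazin) had the smallest p there, at 14.0 ± 2.06 against 18.3 ± 3.42 CPM (-0.38 ± 0.11, edgeR adjusted p = 0.0753). Cacna1i followed with -0.40 ± 0.14 (edgeR adjusted p = 0.151) and Cacna1h with -0.26 ± 0.10 (0.197). Whether the labels differed in this was not tested. The 13 dopamine neuron markers were all lower under VPA in the mutant label, at a median of -0.70 (0 passed), and their summed level ran from 393 to 9900 CPM under VPA and from 4935 to 10150 under ACY957. All 6 cortical and hippocampal pyramidal neuron markers were lower too (median -0.63, 0 passed). Of 12 markers of all neurons 9 were lower and 3 higher, with 1 passing in each direction. All 8 oligodendrocyte markers had a positive difference (median 0.23, 1 passed), as did 8 of 9 hypothalamic markers, of which 3 passed. The 4 GABA neuron markers were all higher (median 0.18, 0 passed). In the wildtype label 12 of the 13 dopamine neuron markers had a positive difference (median 0.14). So did 5 of 8 oligodendrocyte, 6 of 9 hypothalamic, all 6 pyramidal neuron and 1 of 4 GABA neuron markers there. In each of these lists 0 passed. The part of these markers in the channel differences was not tested. In the mutant label, with Th as a covariate, 2 other members, Cacna1c and Cacng4, passed and the 5 did not. Over all genes 582 then passed, against 869 without the covariate. Cacna1b was then at -0.37 (edgeR adjusted p = 0.0513), Cacna1d at -0.37 (0.0762) and Cacna1e at -0.33 (0.254). Cacng3 was at -0.20 (edgeR adjusted p = 0.174) and Scn3b at -0.15 (0.389). Without the 4 libraries lowest in Th 7 of the 35 passed, among them Cacna1b, Cacna1d and Cacng3, beside 941 of all genes. Scn3b (-0.39, edgeR adjusted p = 0.0542) and Cacna1e (-0.51, 0.0595) did not. The count of channel genes in this comparison was 0 without replicate 2 or replicate 8 of the mutant ACY957 group. It was 9 without replicate 2 of the mutant VPA group or replicate 5 of the mutant ACY957 group. It was 3 without replicate 3 of the mutant ACY957 group and 2 without replicate 7 or 8 of the mutant VPA group. Counts over all genes for these fits are not given here, so the changes are not read as particular to channel genes.

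**Figure D4:**
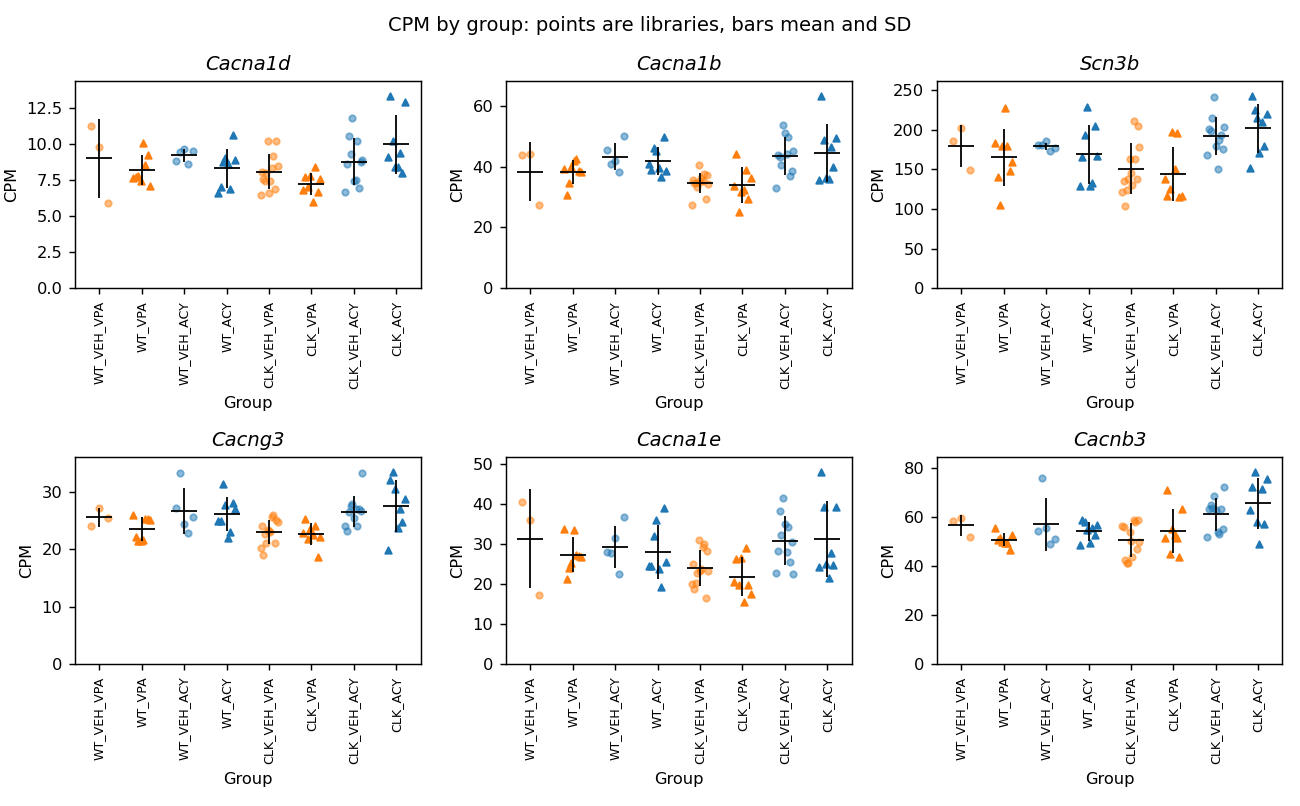
CPM of 6 channel genes in the 8 groups; points are libraries (triangles drug, circles vehicle), and bars give the mean and SD. In the mutant label (CLK) the means of the VPA vehicle and VPA groups lie lower than those of the ACY957 vehicle and ACY957 groups, as with Cacna1b at 34.6 and 33.95 against 43.6 and 44.4 CPM.

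The vehicles also differed from each other, in a comparison added after the group values had been seen. In the mutant label 8 of the 35 genes were lower under the VPA vehicle than under the ACY957 vehicle (edgeR; 3.66% of all genes passed), and the median was -0.21. Scn2b stood at 296 ± 21.97 CPM (n = 13) and 342 ± 27.8 (n = 11), a log2 difference of -0.21 ± 0.05 (edgeR adjusted p = 0.0115). Cacna1b differed by -0.33 ± 0.08 (edgeR adjusted p = 0.0182), Cacna1g by -0.32 ± 0.08 (0.0212), Cacng8 by -0.30 ± 0.08 (0.0219) and Cacnb3 by -0.27 ± 0.07 (0.0264). Cacna1c, Cacna2d2 and Scn3b passed with -0.31, -0.24 and -0.35 (edgeR adjusted p = 0.0417, 0.0437 and 0.0490). Of the other genes that differed between the drugs, Cacng3 differed by -0.21 between the vehicles (edgeR adjusted p = 0.0578), Cacna1e by -0.36 (0.0925) and Cacna1d by -0.12 (0.489).

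The drug effects themselves, each taken against its own vehicle, differed between VPA and ACY957 for 0 of 35 genes in the mutant label (edgeR; 0.0128% of all genes; 3 genes at an unadjusted p under 0.05) and for 0 of 35 in the wildtype label (0%; 1 gene at that p). The 3 genes of the mutant label were Scn2b (0.21 ± 0.08), Cacna1d and Scn1a (-0.30 ± 0.15). DESeq2 and limma voom also gave 0 in both. For Cacna1d that difference was -0.34 ± 0.15 in the mutant label (edgeR adjusted p = 0.669), and for Cacna1b it was -0.05 ± 0.13 (0.957). In the wildtype label 0 of 35 differed between the vehicles (edgeR; 0%; 0 at an unadjusted p under 0.05; 0 by DESeq2), over 3 and 5 libraries. The 13 dopamine neuron markers were all lower under the VPA vehicle of the mutant label (median -0.35, 0 passed). So were 5 of 6 pyramidal neuron markers (median -0.35, 0 passed), while 7 of 8 oligodendrocyte markers were higher (median 0.22, 0 passed). With Th as a covariate 14 channel genes passed. The vehicle count was 0 without the 16 later vehicle libraries, which leaves replicates 1 to 4 of each mutant vehicle. It was 1 without the 13 libraries whose clock output went against the label. Fewer libraries were compared in these fits, and counts over all genes are not given here for the alternative vehicle fits. Leaving out 1 vehicle library gave 2 to 11, the lowest without replicate 5 of the mutant ACY957 vehicle. It was 4 without replicate 4 of either mutant vehicle, and 5 without replicate 1, 5 or 11 of the VPA vehicle or replicate 2, 3, 6 or 8 of the ACY957 vehicle.

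Partner genes were tested in the same way. Of 57, 4 passed the edgeR F test (Fam155a, Nedd4l, Slc8a2 and Stac2), beside 12.9% of all genes. Fam155a, part of the NALCN sodium leak channel complex, was the lowest of them at an adjusted p of 0.00222. Between VPA and ACY957 in the mutant label, Fam155a was lower under VPA by -0.24 ± 0.06 (edgeR adjusted p = 0.0122) and Rims1, a presynaptic scaffold that binds calcium channels, by -0.42 ± 0.13 (0.0443). These were 2 of the 57, beside 5.56% of all genes. Between the vehicles of the mutant label 4 of the 57 passed (Fam155a, Gem, Nedd4l and Slc8a2), beside 3.66% of all genes. The VPA and ACY957 effects, each against its own vehicle, differed for 0 of the 57 in that label (edgeR, 0.0128% of all genes). None of the 57 passed in the 4 comparisons of a drug with its vehicle by edgeR, where 1, 11, 0 and 1 had an unadjusted p under 0.05 for VPA in the wildtype and mutant labels and for ACY957 in the wildtype and mutant labels.

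Replicate 11 of the mutant ACY957 vehicle group had a profile of its own among these genes. Cacna2d1 stood at 79.9 CPM there, beside 131 to 338 in the other 63 libraries, and Cacnb4 at 51.6, beside 121 to 172. Scn1a (112 CPM, others 168 to 338), Scn2a1 (107, others 129 to 251) and Scn3a (34.2, others 43.98 to 90.1) were also at their lowest in this library, and Cacng7 was at its highest (69.8, others 47.2 to 63.8). The 5 low genes have transcripts of 40.5% to 43.4% GC, and that of Cacng7 has 58.1%. Over the 35 genes, the log2 difference from the median library correlated with transcript GC content at r = 0.69 and rho = 0.61, as a description of 1 library over genes that are not independent. Over 15521 genes the same correlation was r = 0.64. The trend was 0.56 log2 per 10 points of GC in this library and -0.15 to 0.12 in the other 63. Without this library the count of channel genes between the vehicles of the mutant label was again 8.

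**Figure D5:**
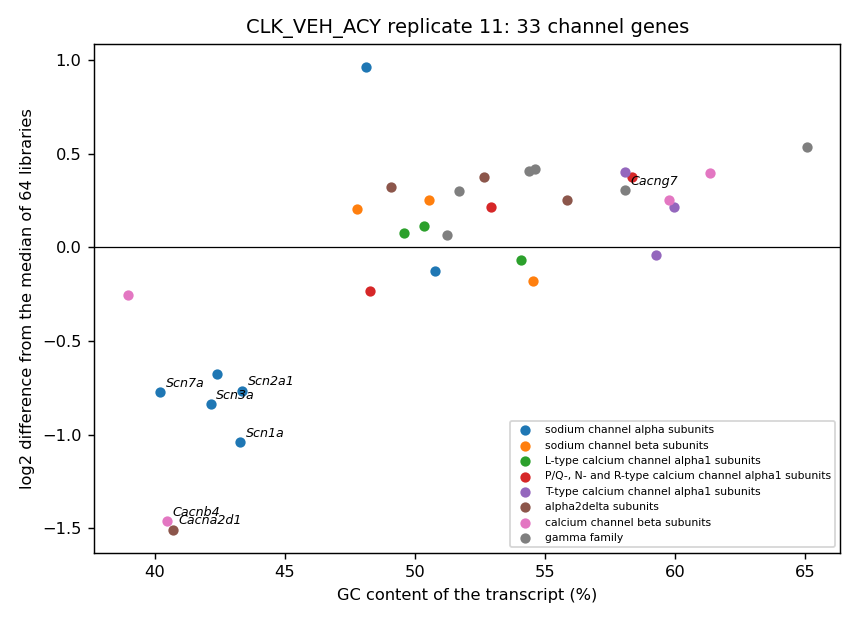
Log2 difference of 33 of the 35 channel genes in replicate 11 of the mutant ACY957 vehicle group from the median of 64 libraries, against the GC content of their transcripts; colours give the role. Genes under 45% GC lie below 0, down to -1.51 for Cacna2d1.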

How the data were processed

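The authors deposited a table of raw counts per gene (24421 genes, 64 libraries) from stranded poly(A) RNA-seq. Per the series' design text, reads were checked with FastQC 0.11.3, aligned to mm10 with TopHat2 2.0.9 and counted with HTSeq 0.6.1 in union mode. The submitters' processing notes name HISAT2 as aligner. The strand setting is not given in the sources used here. Totals of 20136700 to 37475300 counts per library set the precision, which is lowest for Cacna1s and Scn11a. Libraries were grouped by genotype label and treatment, 1 mouse each.

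Counts were analysed in R 4.3.3 with edgeR 4.0.16 (TMM scaling, filterByExpr, quasi-likelihood F test). All 8 groups entered 1 fit, 15634 genes were tested, Benjamini-Hochberg adjustment ran over all genes of a comparison, and the threshold was 0.05. Errors after ± are SE for log2 values and SD for levels. Log2 CPM used a prior count of 2. The slope on Th was fitted within groups. Alternatives used limma 3.58.1 (voom), DESeq2 1.42.0, no low-count filter, the compared groups alone, Th as a covariate, and libraries left out. Leaving out the libraries whose clock output went against their label, the GC covariate and the comparisons between vehicles and between drug effects were chosen after seeing the data. The procedure was tested on simulated data. The channel genes, partner genes and marker lists were chosen with earlier results of these data known. Some genes are counted in the totals but not reported here individually. Genes named are those that pass, or else the 3 with the smallest p, with the extremes of level and spread. Positions and lengths are from GENCODE M21 and promoter windows from RefSeq.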

Additional observations from a re-analysis of the deposited data

Results flagged for a closer look

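Over 175 pairs of a gene and a group of 4 to 10 libraries, 8 had a library far from the others of its group by Dixon's criterion, which chance meets in about 1 in 20 groups. Cacng4 stood at 14.5 CPM in replicate 2 of the mutant VPA group, a library low in Th, with the next at 7.77. Cacna2d2 stood at 115 CPM in replicate 2 of the mutant ACY957 group (next 92.7), 1 of the 2 libraries without either of which no channel gene passed between the drugs. In replicate 2 of the wildtype ACY957 vehicle group Cacnb3 was highest at 75.8 CPM (next 55.4) and Scn2b lowest at 279 CPM (next 323). Scn1a was highest in replicate 5 of that group at 291 CPM (next 233). Cacnb4 was highest in replicate 7 of the wildtype VPA group at 171 CPM (next 150). Scn11a, at few counts, was highest at 1.25 CPM in replicate 6 of the wildtype VPA group and at 1.29 CPM in replicate 5 of the mutant VPA group (next 0.820 in both).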

How the results depend on the processing

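The comparisons of a drug with its vehicle, of genotype labels and of interactions gave 0 channel genes under every alternative run. For VPA against ACY957 in the mutant label (5 genes, 869 of all genes) the count was 1 with the compared groups alone (260 of all genes). It was 2 with Th as a covariate (582), 10 with the library GC trend as a covariate (1323), and 0 to 9 when 1 library was left out. In the wildtype label (0 genes) it was 1 with DESeq2, 3 without the libraries low in Th, 2 with Th as a covariate, and 0 to 2 when 1 library was left out, with 2 reached without replicate 3 of VPA and 1 without replicate 6 of ACY957. For the vehicles of the mutant label (8 genes, 572 of all genes) it was 1 without the libraries whose clock output went against their label. It was 0 without the 16 later vehicle libraries, 5 with no low-count filter, 14 with Th as a covariate, and 2 to 11 when 1 library was left out. Counts over all genes are not given here for these alternative vehicle fits. For the F test (7 genes, 2020 of all genes) the count was 12 with DESeq2 (2874), 3 without the 16 later vehicle libraries (1846), and 6 to 10 when 1 library was left out. The slope on Th (17 genes, 4364 of all genes) gave 15 to 18 when 1 library was left out. It gave 14 without the 16 later vehicle libraries (4033 of all genes). Without the libraries whose clock output went against their label it gave 12 (3236), and Scn2a1, Cacnb2, Cacna1c, Cacng4 and Cacng5 did not pass. The slope of Cacng4 turned to 0.045 without the libraries low in Th. Fewer libraries are compared where libraries are left out; the cause of the other changes was not tested. No paired analysis was possible because each mouse number occurs in 1 group only. Depth limits Cacna1s and Scn11a, at medians of 0.3502 and 0.687 CPM. The wildtype vehicles hold 3 and 5 libraries.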
